A study of Mus musculus with 12 samples.

Results

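miR-22 is a single-copy mouse microRNA whose hairpin gives 2 mature strands, mmu-miR-22-3p and mmu-miR-22-5p. Both rows were taken by name from a table of 386 mature miRNA rows, so 2 of 386 rows are described here. The table was made by small RNA sequencing of livers from 12 wild-type male mice of the C57BL/6 strain, which were fasted and killed at 12 weeks, or postnatal day 84. Their mothers, from a cohort of 35 dams of the C57BL/6J substrain, ate either of 2 diets. Control chow held 3% lipids and 7% simple carbohydrates, while the obesogenic diet held 20% and 10% and came with sweetened condensed milk. On day 3 each litter was set to 6 pups, and sons were put on either diet at weaning on day 21. The 4 groups had 3 libraries each. OO sons and their mothers both ate the obesogenic diet. OC sons ate chow after an obesogenic mother. CO sons ate the obesogenic diet after a chow-fed mother. CC sons and their mothers both ate chow. The crossed design asks what each diet, and both together, do to hepatic miRNA levels.

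A miRNA guides an Argonaute protein to messenger RNAs that pair with its seed, the bases near its 5′ end, and lowers their translation or stability. One strand of each hairpin is usually kept as the guide and the other is mostly degraded, so the levels of the 2 arms often differ widely. miR-22-3p is the guide strand, is highly conserved among vertebrates and is abundant in liver, heart and muscle. Studies in mice and human cells have tied it to messages such as Tet2, Sirt1 and Hdac4, and mouse studies of its loss or inhibition have reported effects on body weight and liver fat.

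The mature strands are shown because the 3p arm carries nearly all reads and because the seed sets which messages a miRNA can pair with. Capitals mark the seed, bases 2 to 8 counted from the 5′ end, in the RefSeq sequences for mouse build GRCm38.p6.
mmu-miR-22-3p: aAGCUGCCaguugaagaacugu
mmu-miR-22-5p: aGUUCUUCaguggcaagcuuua
Each strand is 22 bases long. Among the 1679 mature miRNAs in the RefSeq table, which include both arms, no other one has the seed AGCUGCC, and no other one has GUUCUUC, so neither arm could be set beside a miRNA that shares its seed. Of the 386 rows measured, 320 matched that table by name.

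The hairpin is shown whole because both arms come from it, with the mature strands in capitals, the 5p arm first.
Mir22 hairpin: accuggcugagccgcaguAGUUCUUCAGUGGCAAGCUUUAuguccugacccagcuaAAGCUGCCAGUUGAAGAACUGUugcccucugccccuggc
It is 95 bases long and lies on the plus strand at chr11:75463716-75463810, with the 5p arm at chr11:75463734-75463755 and the 3p arm at chr11:75463772-75463793. In the GENCODE annotation it is inside exon 2 of the non-coding host gene Mir22hg and inside exon 2 of a non-coding transcript of Tlcd2, a protein-coding gene on the same strand. A minimum free energy fold of the hairpin came to -41.9 kcal/mol and joined the arms by 19 base pairs, with 7 of 7 seed bases paired in each arm.

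Values are in CPM, the reads of a row scaled by the authors to a common total per library. Whole reads could be read back as multiples of 1 step, which gave depths of 5.45 to 22.2 M reads with a median of 13.2 M reads, where M stands for mega. Depth ran from 10.47 to 22.2 M reads in the 6 sons of obesogenic mothers and from 5.45 to 14.97 M reads in the 6 sons of control mothers. Title prefixes also split fully with the mothers' diet, so a batch behind them cannot be told apart from that diet. The final letter of the titles partly follows the sons' diet, and OC replicate 2 and OO replicate 3 share a title stem, neither of which the labels explain. The labels name no mother or litter for a son, and the p-values measure the spread among these libraries only. Because whole livers were sampled, fewer cells of a type and less RNA per cell cannot be told apart.

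OO replicate 3 held the highest value of the 12 libraries in 112 of 386 rows, against 10 to 62 rows in each other library. CO replicate 3, the shallowest of the 12, stood apart most. It held the lowest value of the 12 libraries in 158 of 386 rows, against 13 to 30 rows in each other library. Its median log2 deviation from the mean of the other 11 libraries was -0.22 over all rows. Within it, miR-22-3p deviated by -0.55 and miR-22-5p by -0.65, and they were the 97th and the 79th lowest deviations of the 386 rows. The largest row, miR-192-5p, deviated the other way by 0.29. The hepatocyte marker miRNAs, 8 of 9 measured, summed to 42.0% of CO replicate 3, against 34.9% to 38.9% of the other 11. miR-192-5p is among them and makes up most of that sum. Alone it held 29.2% of CO replicate 3, against 22.1% to 25.3% of the other 11, so the higher sum does not speak for hepatocyte markers in general. The 2 endothelial markers summed to 1.54% against 2.09% to 2.78%, and the 6 leukocyte markers to 0.225% against 0.280% to 0.454%. The 4 erythroid, 6 stellate and mesenchymal and 6 biliary and epithelial markers, and the 3 of 6 striated muscle markers measured, all summed to values inside the range of the other libraries. Most of the endothelial sum was miR-126-5p, at a mean of 19642 CPM, and most of the leukocyte sum was miR-142-5p, at 2252 CPM. The stellate and mesenchymal sum was mostly miR-143-3p, at 36163 CPM. These 3 sums therefore do not speak for the other markers on their lists. No marker row was at 0. The part of depth and of these markers in the miR-22 values was not tested. Each diet estimate that uses CO replicate 3 is therefore given with and without it. The linear model used below shares 1 spread among all libraries, so CO replicate 3 also enters the intervals and p-values of the other contrasts.

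miR-22-3p was the second most abundant row in every one of the 12 libraries. It averaged 175173 ± 18588 CPM (SD, n = 12), which was 17.3% of the summed values, with a lowest share of 12.1% and a highest of 19.2%. miR-192-5p, which is abundant in liver and gut epithelium, stood above it in 12 of 12 libraries with a mean of 246349 ± 17931 CPM. miR-148a-3p, a hepatocyte miRNA studied for its control of LDL receptor levels, came next below at 83864 ± 6200 CPM. It was followed by miR-21a-5p, which rises in many injured tissues, at 49286 ± 7642 CPM and by miR-30a-5p at 42384 ± 2508 CPM. The groups of values of miR-22-3p and of its neighbours above and below did not overlap, since the highest miR-148a-3p value was 95301 CPM.

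Among OO livers miR-22-3p was at 171864, 165160 and 193801 CPM. OC livers had 182095, 180385 and 192104 CPM. CO livers had 173258, 171545 and 122504 CPM, and CC livers had 183413, 183221 and 182728 CPM. All 3 CO libraries lay below all 3 CC libraries, and every other pair of groups sharing a diet overlapped. The group means were 176941 ± 14981 CPM in OO, 184861 ± 6330 CPM in OC, 155769 ± 28821 CPM in CO and 183121 ± 353 CPM in CC (SD, n = 3 each). The 4 means stood in the order OC, CC, OO, CO, and neighbours in that order did not differ beyond their spread.

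The coefficient of variation of miR-22-3p was 8.47% in OO, 3.42% in OC, 18.5% in CO and 0.193% in CC. The CO value rested on 1 library, since the other 2 CO libraries had a coefficient of 0.702%, below those of OO and OC. In CC only 1 of the 386 rows had a smaller one, and the median over all rows was 11.3%. The counting error of miR-22-3p was 0.0497% to 0.122% per library, from 667307 to 4040477 reads. Over all 12 libraries the coefficient was 10.6%, and it was 4.89% without CO replicate 3, where only 5 rows had a smaller value.

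**Figure D1:**
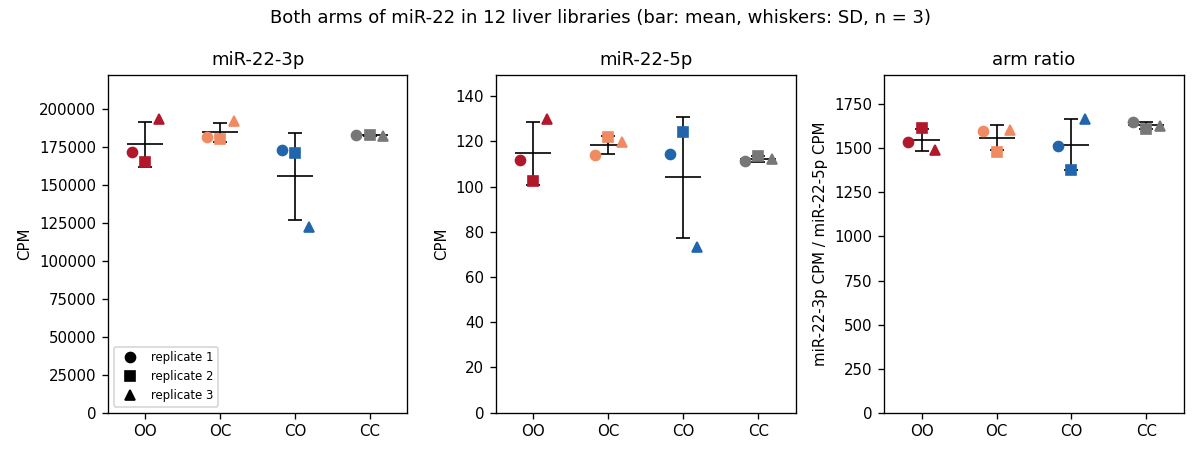
CPM of miR-22-3p (left), CPM of miR-22-5p (middle) and the ratio of the arms (right) in each of 12 liver libraries, by group. Bars give the mean and whiskers the SD of 3 libraries; CO replicate 3 is the lowest point for both arms, at 122504 and 73.4 CPM, and the highest for their ratio, at 1668.

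miR-22-5p, the strand that is mostly discarded, was detected in every library at a far lower level. Its mean was 112 ± 14.2 CPM (SD, n = 12), rank 135 of 386 rows, and its rank within a library ran from 123 to 139. It sat between miR-128-3p at 114 ± 14.9 CPM and miR-142-3p, a blood cell miRNA, at 108 ± 25.4 CPM. These neighbours did not differ from it beyond their spread: miR-22-5p was above miR-128-3p in 6 of 12 libraries and above miR-142-3p in 7. It rested on 400 to 2527 reads, so that its counting error was 1.99% to 5.0% per library.

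OO livers had 111.7, 102.3 and 129.96 CPM of miR-22-5p, and OC livers had 113.9, 121.8 and 119.5 CPM. CO livers had 114.3, 124.4 and 73.4 CPM, and CC livers had 111.2, 113.6 and 112.1 CPM. All 3 OC libraries were above all 3 CC libraries, though the closest pair differed by less than the counting error, and the remaining groups overlapped. Means were 115 ± 14.1 CPM in OO, 118 ± 4.08 CPM in OC, 104 ± 27.0 CPM in CO and 112 ± 1.25 CPM in CC (SD, n = 3 each). The coefficient of variation of the 5p arm was 12.3% in OO, 3.45% in OC, 25.9% in CO and 1.11% in CC. In CO it was 5.96% without CO replicate 3, so that OO and not CO spread most.

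The offspring's own diet was compared with limma, a linear model fitted to log2(CPM + 1) of all 386 rows, and an adjusted p under 0.05 after the Benjamini-Hochberg method passed. miR-22-3p averaged 166355 ± 23591 CPM in sons fed the obesogenic diet and 183991 ± 4122 CPM in sons fed chow (SD, n = 6 each). The log2 difference averaged over the mothers' diets was -0.16 (SE 0.0836, 95% interval -0.34 to 0.02), and limma's adjusted p was 0.417. In percent the interval ran from -21.1% to 1.71%. Leaving out CO replicate 3 gave a log2 difference of -0.08 (SE 0.0436), with a limma adjusted p of 0.390. Neither passed, and the estimate was over 1.5 times larger with that library.

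Split by the mothers' diet, CO against CC gave the largest of the 8 contrasts in miR-22-3p. Its log2 difference was -0.25 (SE 0.118, 95% interval -0.51 to 0.01), with an unadjusted limma p of 0.0560 and an adjusted p of 0.318. Without CO replicate 3 it was -0.09 (95% interval -0.23 to 0.06), with a limma adjusted p of 0.623. The separation of all 3 CO libraries below all 3 CC libraries was shared by 63 of the 386 rows, or 16.3%. OO against OC gave a log2 difference of -0.07 (95% interval -0.32 to 0.19) and a limma adjusted p of 0.982. Its interval was -0.20 to 0.06 without CO replicate 3, where limma's adjusted p was 0.771.

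Sons fed the obesogenic diet averaged 109 ± 20.1 CPM of miR-22-5p, and sons fed chow 115 ± 4.30 CPM (SD, n = 6 each). For the offspring's diet its log2 difference was -0.10 (SE 0.126, 95% interval -0.38 to 0.18), with a limma adjusted p of 0.766. The sign turned without CO replicate 3, at 0.02 (95% interval -0.15 to 0.19). CO against CC gave -0.14 with all libraries and 0.09 without CO replicate 3, and OO against OC gave -0.05. None of the 3 passed in limma.

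As a background, 3 of 386 rows (0.777%) passed limma for the offspring's diet, 3 (0.777%) in CO against CC and 2 (0.518%) in OO against OC, all of them lower in obesogenic-fed sons. Unadjusted p-values under 0.05 were given by 57, 63 and 28 rows for these contrasts. Over the alternatives tried, the counts that passed limma ran from 3 to 8 for the offspring's diet, from 1 to 10 in CO against CC and from 0 to 2 in OO against OC. Neither arm of miR-22 was among the rows that passed. By unadjusted p the 3p arm ranked 75th of 386 for the offspring's diet and 68th in CO against CC.

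The share of the summed values held by miR-22-3p was put to another test for the offspring's diet. It is nearly the CPM rescaled, since the summed values exceeded the CPM total by only 0.866% to 1.17%, and so is not separate evidence. The 6 libraries of obesogenic-fed sons had 16.5 ± 2.34% and the 6 of control-fed sons 18.2 ± 0.415% (SD), a difference of -1.75 percentage points. An exact two-sided permutation test over libraries gave p = 0.0628, or 0.126 after Benjamini-Hochberg adjustment over 2 tests. The call depended on 1 library. Without OO replicate 3, the highest of all 12, the difference was -2.29 points and the exact permutation test's adjusted p was 0.00866. With CO replicate 3 left out it was -0.88 points, with an exact permutation adjusted p of 0.251. Over the leave-one-out settings and another denominator, adjusted p in this exact test ran from 0.00866 to 0.281. All 6 control-fed libraries had a higher share than 5 of the 6 obesogenic-fed ones, and a lower share than OO replicate 3. Leaving that library out thus parted the sets fully, which gives the smallest p that this exact test can reach. How many of the other rows part in the same way was not counted.

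For the mothers' diet, miR-22-3p averaged 180901 ± 11163 CPM in sons of obesogenic mothers and 169445 ± 23595 CPM in sons of control mothers (SD, n = 6 each). The log2 difference averaged over the sons' diets was 0.11 (SE 0.0836, 95% interval -0.08 to 0.29), with a limma adjusted p of 0.704. It was 0.02 without CO replicate 3. OC against CC gave 0.01, with a percent interval from -15.7% to 20.8% and a limma adjusted p of 0.9999. On the log2 scale its interval was -0.25 to 0.27, and -0.12 to 0.14 without CO replicate 3. OO against CO gave 0.20 (95% interval -0.06 to 0.46), with a limma adjusted p of 0.396, where the median of all rows was 0.13. That difference was 0.03 without CO replicate 3. The share was 17.9 ± 1.10% in sons of obesogenic mothers and 16.8 ± 2.34% in sons of control mothers, a difference of 1.14 points for which the exact permutation test gave p = 0.355. The difference was 0.214 points without CO replicate 3.

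miR-22-5p gave 0.12 on the log2 scale for the mothers' diet (95% interval -0.16 to 0.40), 0.08 in OC against CC and 0.17 in OO against CO. limma's adjusted p was 0.749 in the first, 0.9999 in the second and 0.638 in the third. In the 11 other libraries than CO replicate 3 the values were 0.01, 0.08 and -0.06. The separation of the 3 OC libraries above the 3 CC libraries was shared by 17 of 386 rows, or 4.4%. In limma 0 of 386 rows (0%) passed for the mothers' diet, in OC against CC and in OO against CO, and unadjusted p-values under 0.05 were given by 27, 4 and 47 rows.

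With both diets obesogenic, OO against CC differed by -0.05 on the log2 scale in miR-22-3p (95% interval -0.31 to 0.21, limma adjusted p 0.942) and by 0.02 in miR-22-5p (95% interval -0.37 to 0.41, limma adjusted p 0.978). In that contrast 1 of 386 rows (0.259%) passed limma. Without CO replicate 3 its intervals were -0.18 to 0.08 in miR-22-3p and -0.20 to 0.25 in miR-22-5p. The interaction asks whether the sons' diet acted differently by the mothers' diet. It was 0.19 in miR-22-3p (SE 0.167, 95% interval -0.18 to 0.55, limma adjusted p 0.773) and 0.09 in miR-22-5p (SE 0.253, limma adjusted p 0.906), where the median of all rows was 0.13. Without CO replicate 3 it was 0.02 in the 3p arm and -0.14 in the 5p arm. With all 12 libraries 0 of 386 rows (0%) passed limma for the interaction, and 15 rows had an unadjusted p under 0.05. Neither arm passed limma in any of the 8 contrasts.

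**Figure D2:**
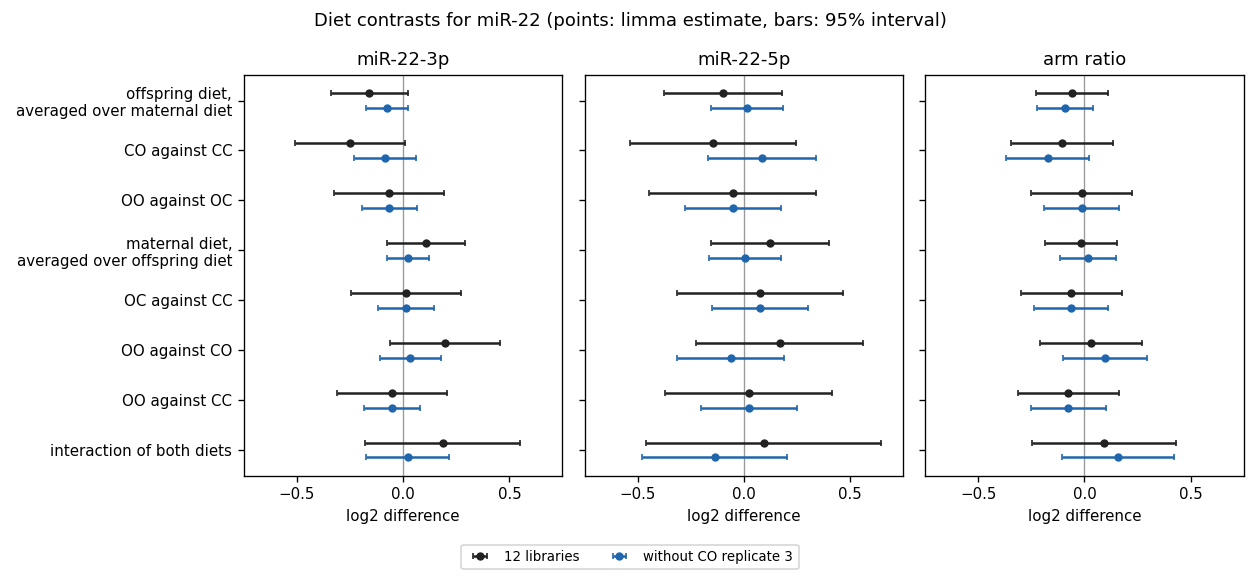
Log2 differences of miR-22-3p (left), miR-22-5p (middle) and the arm ratio (right) in 8 diet contrasts, with limma estimates as points and 95% intervals as bars. Black stands for 12 libraries and blue for the 11 without CO replicate 3; every interval contains 0, and the 3p estimate of CO against CC is -0.25 in black and -0.09 in blue.

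The ratio of the arms within a library does not depend on how libraries were scaled. It was 1538, 1614 and 1491 reads of miR-22-3p per read of miR-22-5p in OO livers and 1599, 1481 and 1607 in OC livers. It was 1516, 1379.5 and 1668 in CO livers and 1649.8, 1612 and 1630.4 in CC livers. The means were 1548 ± 62.1 in OO, 1562 ± 70.8 in OC, 1521 ± 144 in CO and 1631 ± 18.7 in CC (SD, n = 3 each). The 3 OC libraries lay below the 3 CC libraries, though the closest pair differed by less than the counting error of the 5p arm. A separation in this direction was shared by 5 of 99 hairpins (5.05%), and the other pairs of groups overlapped. miR-22-5p made up 0.0599% to 0.0724% of the reads of both arms.

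Set beside the other 98 hairpins with both arms listed, miR-22 was strongly biased to its 3p arm. Its mean log2 ratio of 3p to 5p was 10.60, while the median size of this ratio was 3.58 over the 99 hairpins. The 3p arm was the higher one in 48 hairpins and the 5p arm in 51. Among hairpins that favour the 3p arm, only miR-143, a miRNA of smooth muscle and other mesenchymal cells, had a larger log2 ratio, at 11.82. Next below miR-22 were miR-27b at 9.90, miR-29a at 9.02, miR-130a at 8.92 and miR-101a at 8.87. The liver's most abundant row, miR-192-5p, belongs to a hairpin with the opposite bias, at -11.41 for 3p over 5p.

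The arm ratio of miR-22 was the steadiest of the 99 over the 12 libraries. The SD of its log2 value was 0.0792, against a median SD of 0.249 over the 99 hairpins. Its own arms had larger SDs, 0.173 for the 3p arm and 0.207 for the 5p arm on the log2 scale. Without CO replicate 3 the SDs were 0.0779 for the ratio, 0.0707 for the 3p arm and 0.0928 for the 5p arm, and the ratio was then no steadier than the 3p arm alone. Hairpins with fewer reads carry more counting error, and the order of SDs was not adjusted for it.

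No diet contrast passed for the arm ratio of miR-22. Its log2 differences in limma ran from -0.11 in CO against CC (95% interval -0.35 to 0.13, adjusted p 0.623) to 0.09 for the interaction (adjusted p 0.822). For the offspring's diet it was -0.06, for the mothers' diet -0.02 and in OO against CO 0.03. Without CO replicate 3, CO against CC gave -0.17 (95% interval -0.37 to 0.02), with a limma adjusted p of 0.447. The other contrasts that use this library were then -0.09 for the offspring's diet, 0.16 for the interaction and 0.10 in OO against CO, and the mothers' diet turned to 0.02. Their limma adjusted p ran from 0.511 to 0.971. In limma 0 of 99 hairpins (0%) passed in each of the 8 contrasts, and between 2 and 9 hairpins had an unadjusted p under 0.05.

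**Figure D3:**
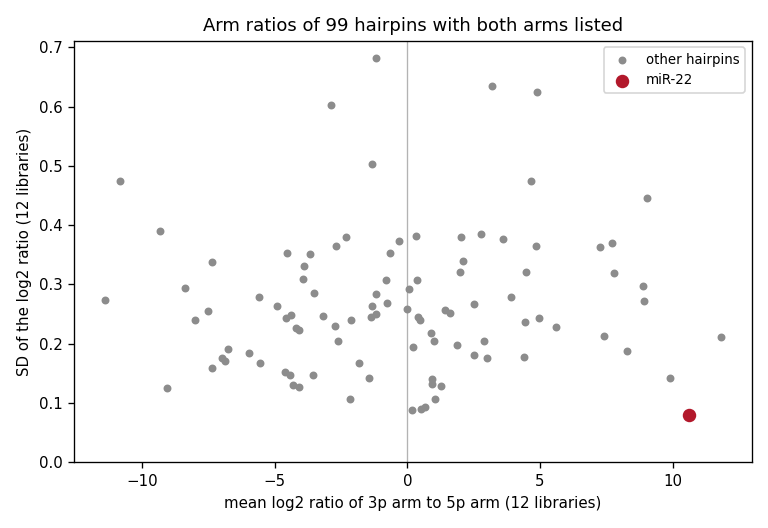
Mean log2 ratio of the 3p to the 5p arm (horizontal) and its SD over 12 libraries (vertical) for 99 hairpins with both arms listed, 1 point each. miR-22, in red, lies at 10.60 and 0.0792, below every other hairpin, and only miR-143, at 11.82, lies farther to the right.

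How closely the arms moved together varied with the libraries included. Pearson's r between log2 values of the arms was 0.928 over 12 libraries (permutation p = 0.00247, Benjamini-Hochberg adjusted over 5 sets p = 0.0123). Spearman's rho was 0.44 (permutation p = 0.155, adjusted p = 0.389). Leaving out CO replicate 3 alone gave r = 0.57 (permutation p = 0.0628) and rho = 0.27 (permutation p = 0.420). The 2 libraries farthest from the median of miR-22-3p were CO replicate 3 and OO replicate 2. Leaving out both gave r = 0.34 (permutation p = 0.339) and rho = 0.03. Because both were picked as extremes, this fall cannot tell a looser relation from a narrower range. Within the 6 sons of obesogenic mothers, r was 0.891 and rho 0.829 (exact permutation p = 0.025 and 0.0583, adjusted 0.0625 and 0.292). That set does not hold CO replicate 3. Within the 6 sons of control mothers, r was 0.927 but rho -0.09 (exact permutation p = 0.328 and 0.919). The arms of a library share its depth and scaling.

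The row most like miR-22-3p across libraries was miR-30c-5p, a member of the miR-30 family. Over the 12 libraries Spearman's rho between them was 0.958, given as a description, while the median rho over the 260 other rows with a mean of at least 10 CPM was 0.17. It was the first of these rows also without CO replicate 3, at 0.945, and under median-of-ratios scaling, at 0.846. The sequence is shown to let the strands be compared, again with the seed in capitals.
mmu-miR-30c-5p: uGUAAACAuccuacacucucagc
Its seed differs from those of both miR-22 arms.

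miR-30c-5p was at 7761 ± 805 CPM in OO, 8026 ± 380 CPM in OC, 6307 ± 1643 CPM in CO and 8260.2 ± 142 CPM in CC (SD, n = 3 each). Library by library, miR-22-3p stood at 21.9 to 24.1 times miR-30c-5p outside CO replicate 3 and at 27.7 times in it. In that library miR-30c-5p was at 56.1% of the mean of the other 11, miR-22-3p at 68.1% and miR-22-5p at 63.4%. The ratio thus varied little among 11 libraries, and both miRNAs were lowest in the same one.

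The next rows followed in likeness to miR-22-3p. These 4 were miR-1247-5p with a rho of 0.818, miR-31-5p with 0.762, miR-30e-3p with 0.755 and miR-345-3p with 0.741. Of these, miR-31-5p was one of the 3 rows that passed limma for the offspring's diet, with 447 ± 25.2 CPM in OO, 571 ± 40.6 CPM in OC, 436 ± 17.1 CPM in CO and 619 ± 11.6 CPM in CC (SD, n = 3 each). The lowest rho values were -0.63 for miR-375-3p, a pancreatic and endocrine miRNA, and -0.61 each for miR-541-5p and miR-21a-5p. miR-21a-5p reached -0.69 without CO replicate 3 but only -0.27 under median-of-ratios scaling. That scaling gave -0.60 for miR-375-3p and -0.36 for miR-541-5p. For miR-1247-5p, miR-31-5p, miR-30e-3p and miR-345-3p it gave 0.65, 0.64, 0.80 and 0.60. miR-22-5p itself stood at rank 52 of the 260 by rho over the 12 libraries. Its rank was 65 without CO replicate 3 (rho 0.27) and 18 under median-of-ratios scaling (rho 0.56).

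The shares of miR-22-3p and miR-192-5p moved in opposite directions in CO replicate 3. The sum was 40.1% to 43.7% over the 12 libraries, and CO replicate 3 was inside that range at 41.3%. The ratio of miR-22-3p to miR-192-5p was 0.415 in CO replicate 3 and 0.653 to 0.818 in the other 11. In CO replicate 3, miR-192-5p was at 122% of the mean of the others. Shares of 1 total are not independent of each other.

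**Figure D4:**
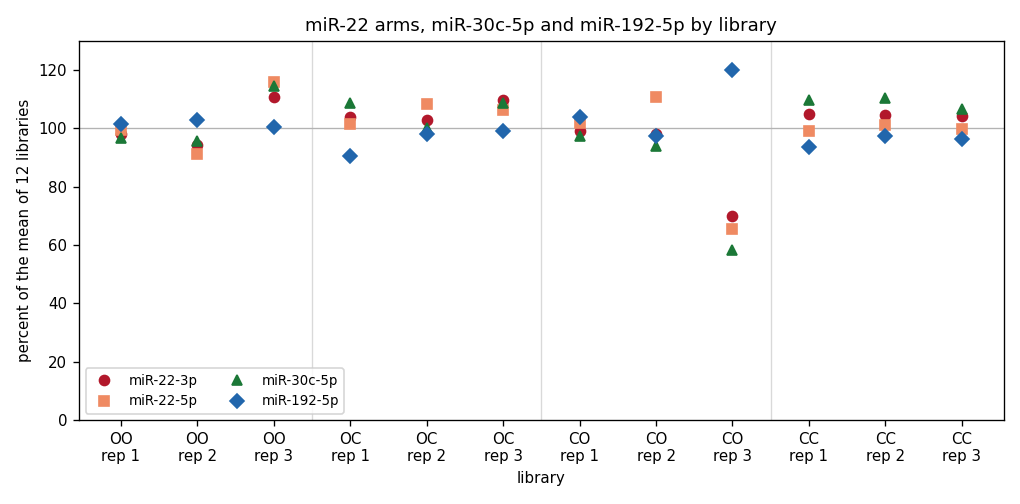
CPM of miR-22-3p, miR-22-5p, miR-30c-5p and miR-192-5p in each library, in percent of that miRNA's mean over the 12 libraries. In CO replicate 3 the first 3 are at 69.9%, 65.4% and 58.2% and miR-192-5p is at 119.8%, while the other 11 libraries lie between 90.4% and 115.7%.

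Other miRNAs known for roles in lipid and glucose metabolism were listed for context, 26 of 26 measured. In limma 1 of them passed in 2 contrasts, where 0.777% of all rows passed for the offspring's diet and 0.518% in OO against OC. It was miR-182-5p, a member of the cluster of miR-183 that is induced by the sterol regulator SREBP2 in cultured cells. Its level was 1056 ± 236 CPM in OO against 2340 ± 524 CPM in OC, and 1012 ± 279 CPM in CO against 1747 ± 99.8 CPM in CC (SD, n = 3 each). The log2 difference averaged over the mothers' diets was -0.98 (SE 0.153), with a limma adjusted p of 0.0074, and it passed with each of the 12 libraries left out. In OO against OC it was -1.15, with a limma adjusted p of 0.0435, a call lost with 10 of the 12 libraries left out. CO against CC did not pass for it, with a log2 difference of -0.82 and a limma adjusted p of 0.166. The list's median log2 difference for the offspring's diet was 0.0017, against -0.02 over all 386 rows. miR-22-3p, a single row that did not pass, was at -0.16, and at -0.08 without CO replicate 3. A median of many rows and the estimate of a single row are unlike measures.

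The 4 most abundant members of that list were miR-143-3p, miR-21a-5p, miR-148a-3p and miR-192-5p, and they did not pass in any contrast. miR-192-5p averaged 250177 ± 2758 CPM in OO, 236046 ± 11720 CPM in OC, 263431 ± 28555 CPM in CO and 235743 ± 4514 CPM in CC. miR-148a-3p averaged 82372 ± 3764 CPM in OO, 79535 ± 7455 CPM in OC, 87248 ± 9161 CPM in CO and 86300 ± 459.5 CPM in CC (SD, n = 3 each). In CC these miRNAs spread more, relative to their means, than miR-22-3p did.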

How the data were processed

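Total RNA was extracted from frozen liver with miRNeasy columns and small RNA libraries were prepared with a TruSeq kit, per the labels' protocols. The submitters' processing notes list Bowtie 1.2.3. Not given in the sources used here are the build, the miRNA reference, the treatment of reads matching several miRNAs and the row filter. The table that the authors deposited holds CPM for 386 mature miRNAs in 12 libraries. All values were multiples of 1 step per library within 0.001 reads, which gave the depth. CPM compares a miRNA across libraries, while differences between miRNAs also hold unmeasured differences in ligation and mapping. A count model was planned for raw counts only, and none was run.

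limma 3.58.1 in R 4.3.3 was fitted to log2(CPM + 1) with 1 mean per group, a mean-variance trend and 8 two-sided contrasts, with Benjamini-Hochberg adjustment over 386 rows within a contrast. Such log2 changes understate those of low rows. The same model was fitted to log2 arm ratios of 99 hairpins. Shares were tested by exact permutation. The model was also run on simulated counts. These had the same spread setting for all rows and no outlying library, so that run does not vouch for data like these. Correlations used 100000 permutations, or all of them with 6 libraries. Other steps used Python 3.11.15, scipy 1.17.1 and RNAfold 2.7.2, and sequences came from RefSeq. The alternatives tried were other scalings, pseudocounts, a filter on low rows, depth as a covariate, fits of only 2 groups and leaving out each library.

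Groups came from the diet labels. Replicate numbers follow accession order and pair nothing. The miRNAs named were both arms, the 5 highest rows, the neighbours of each arm by level, the 5 rows most and 3 least like miR-22-3p by Spearman's rho, members of the metabolism list that passed or were its 4 most abundant, and the nearest hairpins by arm ratio. The members and lists were chosen with earlier results of these data known. Some list names are matched to the table through other names of the same miRNA.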

Additional observations from a re-analysis of the deposited data

Results flagged for a closer look

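Libraries far from the rest were looked for among the 6 libraries of each diet, for both arms and their ratio, by the gap to the nearest library over the group's range. In 4 of 12 groups a library exceeded Dixon's 95% critical value. The groups share libraries, the measures are linked and each group pools 2 diet groups, so this count cannot be set against a chance rate. Among control-fed sons, OC replicate 3 had the highest miR-22-3p, at 192104 CPM. Among sons of control mothers, CO replicate 3 had the lowest miR-22-3p, at 122504 CPM, and the lowest miR-22-5p, at 73.43 CPM. Among control-fed sons, OC replicate 2 had the lowest arm ratio, at 1481.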

How the results depend on the processing

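Of 489 alternative values for 26 results, 463 kept direction and side of the threshold. No alternative made an arm of miR-22 or their ratio pass limma; for miR-22-3p the lowest adjusted p was 0.163, in CO against CC. The share of miR-22-3p passed for the offspring's diet without OO replicate 3, and its difference ran from -2.29 to -0.878 points over libraries left out. For the 3p arm, OC against CC turned to -0.00996 with scaling to rows outside the top 5 and to -0.122 with depth as a covariate, and ran from -0.0149 to 0.0305 over libraries left out. With depth as a covariate the 5p arm turned to 0.0270 in OO against OC, -0.00983 for the mothers' diet, -0.104 in OC against CC and -0.0766 in OO against CC, and the arm ratio to 0.0164 for the mothers' diet. Under median-of-ratios and TMM scaling the 5p arm turned to -0.0279 and -0.00427 in OO against CC and to -0.0307 and -0.0582 for the interaction. Over libraries left out, the 5p arm ran from -0.171 to 0.0167 for the offspring's diet, from -0.290 to 0.0857 in CO against CC, from -0.145 to 0.0257 in OO against OC, from -0.0626 to 0.313 in OO against CO, from -0.0700 to 0.101 in OO against CC and from -0.138 to 0.238 for the interaction. The arm ratio ran from -0.0517 to 0.0120 in OO against OC, from -0.0493 to 0.0173 for the mothers' diet and from -0.0364 to 0.0968 in OO against CO. The cause of these turns was not tested.

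Counts of rows that passed ran over the alternatives from 3 to 8 for the offspring's diet, 1 to 10 in CO against CC, 0 to 2 in OO against OC, 0 to 2 in OO against CO and 1 to 3 in OO against CC, and from 0 to 1 for the mothers' diet and the interaction. Depth as a covariate let 1 hairpin pass in CO against CC. A count model was planned for raw counts, while the table holds CPM. None was run on the whole reads read back from it either. Fits of only 2 groups give no value for the averaged contrasts and the interaction. No paired analysis was possible because replicate numbers follow accession order and the labels name no litter. Depth limits the 5p arm, with 400 reads in CO replicate 3.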
